A study of Homo sapiens with 9 samples.

Results

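The MHC class I antigen presentation genes examined here were the heavy chain genes HLA-B, HLA-C, HLA-E and HLA-F, the light chain gene B2M, the peptide transporter genes TAP1 and TAP2, and the immunoproteasome genes PSMB8 and PSMB9. They were taken by symbol, with earlier results of these data known, and are 9 of the 27111 genes in the deposited tables. All 9 had enough counts to be tested, among 17108 genes tested in all.

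Class I molecules carry short peptides from inside the cell to its surface, where CD8+ T cells and natural killer cells read them. Proteasomes cut the peptides, the TAP transporter moves them into the endoplasmic reticulum, and a heavy chain paired with B2M takes them up there. NF-Y, in which NF-YA joins a dimer of the NFYB and NFYC products, binds CCAAT. In class I promoters such a sequence, the Y box, lies beside X boxes bound by RFX and by CREB/ATF factors, and the coactivator NLRC5 docks on the assembled factors.

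PC-3, an established human prostate cancer cell line, was infected with lentiviral particles carrying the empty pSIN vector (Empty), the long NF-YA isoform (NF-YAl) or the short one (NF-YAs), and selected with puromycin. The transgenes are murine, all groups keep the endogenous human gene, and the cells were grown as multicellular tumor spheroids (MTSs), several of which were pooled for each library. Each line had 3 libraries, from independent experiments by the study's methods, with replicate letters A, B and C, or A, B and D in NF-YAl. Levels are given below as TMM-scaled CPM, that is, counts relative to library size, which allow a gene to be compared across libraries but not with other genes.

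Total expected counts were 18076979 to 27163976 per library. NFYA, which would include reads of the murine transgenes that match human transcripts, was at 89.2 to 96.7 CPM in Empty, 287 to 383 CPM in NF-YAl and 254 to 264 CPM in NF-YAs. The summed level of 8 prostate epithelial line markers, mostly keratin genes, was 1176 to 1298 CPM in Empty, 776 to 816 CPM in NF-YAl and 757 to 863 CPM in NF-YAs, KLK3 was at 0 in every library, and EPCAM was at 0.945 to 1.05 CPM in Empty. The summed level of 8 leukocyte markers was 56.7 to 73.8 CPM in Empty, 23.1 to 38.8 CPM in NF-YAl and 30.5 to 38.6 CPM in NF-YAs. Most of it was CD68, while the pan-leukocyte gene PTPRC stayed at 0.053 to 0.493 CPM. The summed level of 8 fibroblast and endothelial markers, mainly the collagen gene COL1A1, was 53.4 to 54.1 CPM in Empty, 38.2 to 64.8 CPM in NF-YAl and 127 to 150 CPM in NF-YAs. The part of these markers in the results below was not tested. As these are bulk libraries of pooled MTSs, fewer cells expressing a gene and less RNA per cell cannot be told apart.

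The promoter windows below mark the letters that NF-Y is known to bind, where present, and other motifs. NF-Y was chosen since the study overexpressed the subunit that makes the contact with CCAAT. They are RefSeq reference sequence of GRCh38.p14, 5′ to 3′ on the gene's strand, and not the alleles of PC-3. Capitals mark 3 motifs in either orientation. CCAAT is the NF-Y motif. TGACG is part of a CREB/ATF site. GAANNGAAA is the core of an interferon-stimulated response element. The table of promoters held 8 of the 9 genes, all but HLA-E, and the 250 bases before the start were searched.
HLA-B, chr6:31357220-31357359, minus strand: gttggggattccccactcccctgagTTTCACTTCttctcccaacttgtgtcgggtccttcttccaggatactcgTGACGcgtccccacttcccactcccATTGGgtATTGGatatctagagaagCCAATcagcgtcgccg
HLA-C, chr6:31272133-31272272, minus strand: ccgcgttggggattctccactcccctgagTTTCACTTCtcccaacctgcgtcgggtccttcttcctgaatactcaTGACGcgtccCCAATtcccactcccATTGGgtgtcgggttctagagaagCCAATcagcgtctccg
HLA-F, chr6:29723254-29723393, plus strand: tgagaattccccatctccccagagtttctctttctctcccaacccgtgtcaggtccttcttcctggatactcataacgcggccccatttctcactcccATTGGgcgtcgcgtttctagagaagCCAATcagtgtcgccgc
B2M, chr15:44711387-44711486, plus strand: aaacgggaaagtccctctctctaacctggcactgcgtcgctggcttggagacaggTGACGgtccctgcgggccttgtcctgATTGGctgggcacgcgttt
PSMB9, chr6:32853942-32853991, plus strand: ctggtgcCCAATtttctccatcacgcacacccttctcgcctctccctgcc
TAP2, chr6:32838760-32838819, minus strand: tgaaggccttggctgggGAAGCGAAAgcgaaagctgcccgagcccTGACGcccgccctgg
PSMB8, chr6:32844730-32844769, minus strand: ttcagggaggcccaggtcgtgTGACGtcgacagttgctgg
The 3 heavy chain promoters held these letters at similar distances from the start. HLA-B held TGACG from position -106, counted from the start site, ATTGG from -81 and again from -74, and CCAAT from -56. HLA-C held TGACG from -105, ATTGG from -80 and, outside the stretch shown, from -192, and CCAAT from -95 and from -56, and HLA-F held ATTGG from -82 and CCAAT from -57 with no TGACG. B2M held TGACG from -75 and ATTGG from -49.
TAP1 and PSMB8 have a pair of start sites each, so the 8 genes have 10 windows. CCAAT in either orientation was present in 6 of the 10 windows, 1 in each of 6 genes, and in 32.0% of all 35116 promoters of that length. The match in TAP1 and PSMB9 is the same stretch, chr6:32853949-32853953, as these genes start close together on opposite strands, and it is far from both starts, at -249 in TAP1 and -243 in PSMB9. TAP2 and PSMB8 held none. TGACG was in 6 of the 10 windows and in 21.2% of all promoters. GAANNGAAA was in 3 of the 10, those of HLA-B, HLA-C and TAP2, and in 6.56% of all promoters. The NF-kappaB consensus was in 4 of the 10, in HLA-B, HLA-C, B2M and TAP1, and in 5.21% of all promoters. A match describes letters and not a bound site.

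On the length-corrected TPM scale B2M had the highest level of the 9 genes, with a median of 806 TPM over the 9 libraries. HLA-C followed at 194 TPM, then HLA-B at 148 TPM and HLA-E at 121 TPM. The transporter and proteasome genes were lower, with TAP1 at 42.0, PSMB8 at 37.1, TAP2 at 23.2 and PSMB9 at 8.66 TPM, and HLA-F was lowest at 7.58 TPM. B2M exceeded HLA-C, and HLA-C exceeded HLA-B, in 9 of 9 libraries. Some neighbours in this order were not separated: HLA-B exceeded HLA-E in 4 of 9 libraries, TAP1 exceeded PSMB8 in 7 of 9, and PSMB9 exceeded HLA-F in 3 of 9. The deposited TPM of NF-YAl replicate D are on another scale than the rest, as the small RNAs RN7SL1, RN7SL2 and RN7SK took 13.0% of its TPM and 26.7 to 40.5% in the other libraries. Groups were therefore compared on counts.

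**Figure D1:**
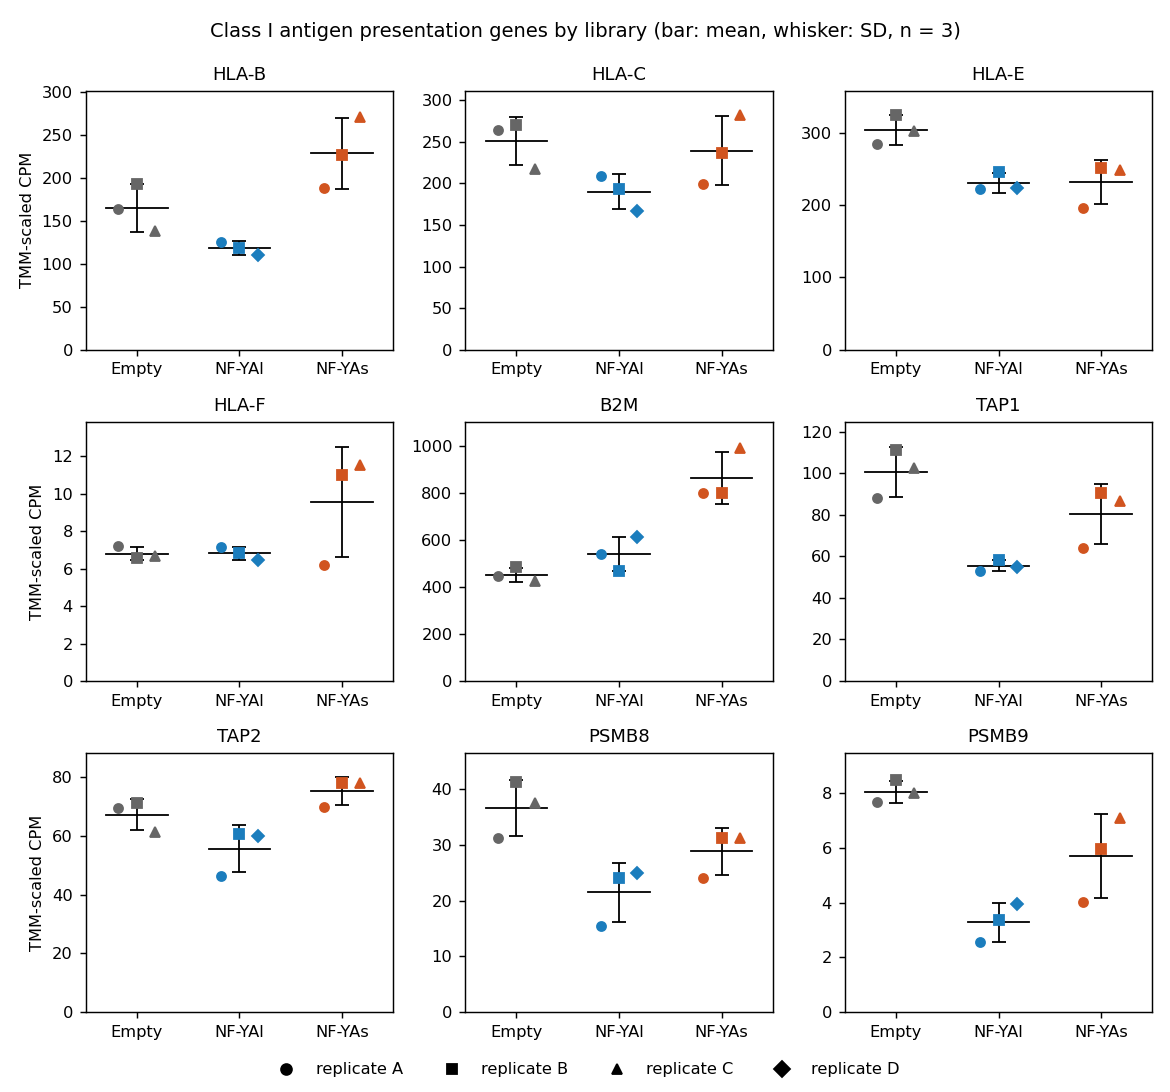
TMM-scaled CPM (vertical axes, from 0) of each class I gene in the 3 Empty, 3 NF-YAl and 3 NF-YAs libraries, with marker shapes for replicate letters, a bar for the mean and whiskers for the SD. The 3 NF-YAl libraries lie lowest for HLA-B, TAP1 and PSMB9, and the 3 NF-YAs libraries lie highest for B2M.

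In NF-YAl MTSs, 3 of the 9 genes fell against Empty, namely TAP1, PSMB8 and PSMB9, and none rose, at an adjusted p under 0.01. Adjusted p-values here and below are from the quasi-likelihood test of edgeR, with adjustment by the Benjamini-Hochberg procedure across all genes. Of all genes tested 19.6% passed in this comparison, 9.54% as lower. In NF-YAs MTSs, B2M rose and none fell, where 22.6% of all genes passed, 12.1% as higher. In the direct comparison HLA-B and B2M were lower in NF-YAl than in NF-YAs, where 11.0% of all genes passed, 6.25% as lower. At an adjusted p under 0.05, 6, 3 and 5 of the 9 genes passed in these comparisons, against 32.1, 35.5 and 23.3% of all genes. The median log2FC of the 9 genes was -0.40 in NF-YAl against Empty, -0.07 in NF-YAs against Empty and -0.49 in NF-YAl against NF-YAs, while the medians over all genes tested were 0.01, -0.00 and 0.02. Both lines were compared with the same Empty libraries, so these comparisons are not independent. PSMB9 in NF-YAl was the only one of the 9 genes with a |log2FC| above 1 as well, the study's definition of a DEG, which 8.27% of all genes met in that comparison.

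**Figure D2:**
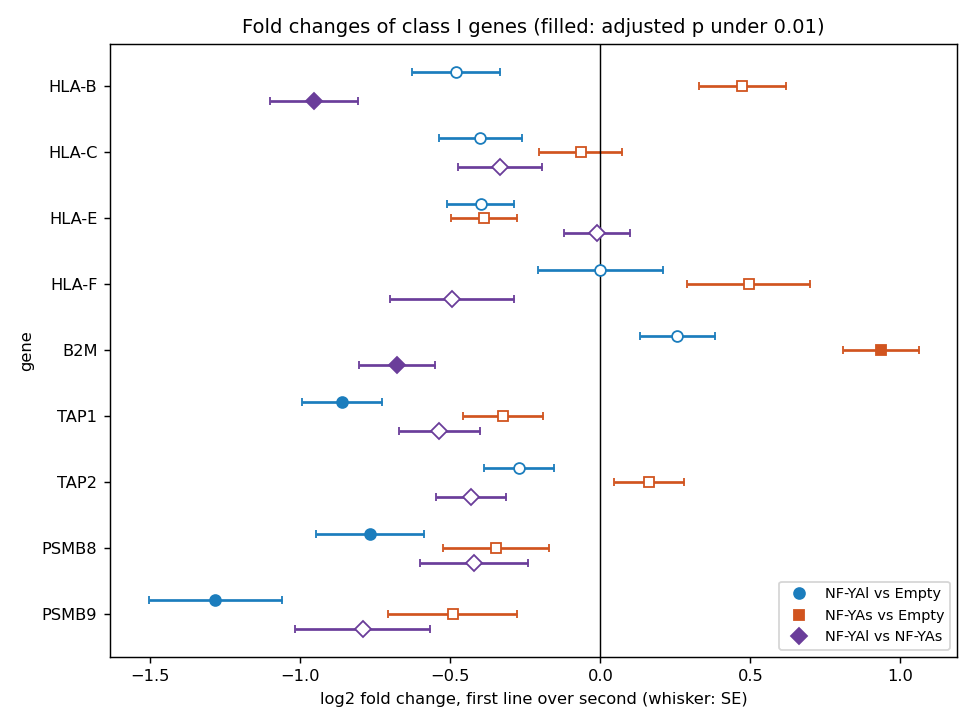
log2 fold changes (horizontal axis) of the 9 genes in the 3 comparisons, with whiskers for the SE. Filled symbols mark an adjusted p under 0.01, which TAP1, PSMB8 and PSMB9 had in NF-YAl against Empty, B2M in NF-YAs against Empty, and HLA-B and B2M in NF-YAl against NF-YAs.

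Among the heavy chains, HLA-B passed the test between the NF-YA isoforms and none passed against Empty. HLA-B, a classical heavy chain that presents peptides to CD8+ T cells, lies at chr6:31321649-31334844 of GRCh37 on the minus strand. It was at 163, 193 and 138 CPM in Empty, 125, 118 and 110 CPM in NF-YAl, and 188, 226 and 271 CPM in NF-YAs. All NF-YAl values lay below all others, and the lowest NF-YAs value lay just under the highest Empty value. HLA-B was 1.94-fold lower in NF-YAl than in NF-YAs (log2FC -0.95 ± 0.15 SE, edgeR adjusted p = 0.000876). Its differences from Empty had opposite signs, with a log2FC of -0.48 ± 0.15 in NF-YAl (adjusted p = 0.0243) and 0.47 ± 0.15 in NF-YAs (adjusted p = 0.0239), and neither passed. With DESeq2 both passed, at adjusted p = 0.00963 and 0.00953, and edgeR with only NF-YAs and Empty in the fit passed the second, at 0.00855.

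HLA-C, the other classical heavy chain measured, lies at chr6:31236526-31239907 of GRCh37 on the minus strand. It was at 264, 270 and 217 CPM in Empty, 209, 194 and 167 CPM in NF-YAl, and 199, 236 and 283 CPM in NF-YAs. The NF-YAl values lay below those of Empty, and the NF-YAs values spanned both. The log2FC of HLA-C was -0.40 ± 0.14 in NF-YAl (adjusted p = 0.0445), -0.07 ± 0.14 in NF-YAs (adjusted p = 0.749) and -0.33 ± 0.14 between the lines (adjusted p = 0.103), so that no comparison passed.

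HLA-E, which shows leader peptides of other heavy chains to receptors of natural killer cells, lies at chr6:30457286-30461971 of GRCh37 on the plus strand. It was at 284, 326 and 302 CPM in Empty, 222, 246 and 223 CPM in NF-YAl, and 197, 252 and 248 CPM in NF-YAs. Unlike the classical chains, all values of both NF-YA lines lay below all Empty values, and the lines overlapped. The log2FC was -0.40 ± 0.11 in NF-YAl (adjusted p = 0.0161) and -0.39 ± 0.11 in NF-YAs (adjusted p = 0.0166), neither of which passed by edgeR. DESeq2 passed both, at adjusted p = 0.00479 and 0.00571, and edgeR with only NF-YAs and Empty in the fit passed the second, at 0.00449. Between the lines the log2FC was -0.01 ± 0.11 (adjusted p = 0.955), a sign that turned with several alternatives.

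HLA-F, a nonclassical heavy chain that is mostly held inside the cell, lies at chr6:29690552-29706305 of GRCh37 on the plus strand and overlaps the antisense gene HLA-F-AS1. It was at 7.21, 6.56 and 6.65 CPM in Empty, 7.16, 6.83 and 6.45 CPM in NF-YAl, and 6.19, 11.0 and 11.5 CPM in NF-YAs. Replicate A of NF-YAs was the lowest of all libraries and the other two NF-YAs libraries were the highest. The log2FC of HLA-F was 0.00 ± 0.21 in NF-YAl (adjusted p = 0.999), 0.49 ± 0.21 in NF-YAs (adjusted p = 0.0808) and -0.49 ± 0.21 between the lines (adjusted p = 0.105). Without NF-YAs replicate A, the second was 0.73 (adjusted p = 0.0051) and the third -0.73 (adjusted p = 0.00982), so that this library decides both calls. HLA-F-AS1 went the other way, from 8.55 ± 0.585 CPM (SD, n = 3) in Empty to 5.44 ± 0.173 CPM in NF-YAl and 3.18 ± 0.794 CPM in NF-YAs, with a log2FC of -1.42 ± 0.19 in NF-YAs (edgeR adjusted p = 0.000134). HLA-F-AS1 was looked at after its overlap was seen. The libraries were made with a stranded kit, but whether the counting used strand is not stated, so reads of this pair may be mixed.

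The expected counts of the 4 heavy chain genes were fractional in 9 of 9 libraries, as RSEM divides reads that match several transcripts, and these genes are near-identical in parts. Their own levels are therefore uncertain, and their counts were also summed before a fit. The sum had a log2FC of -0.41 ± 0.13 in NF-YAl against Empty (edgeR adjusted p = 0.0248), -0.03 ± 0.13 in NF-YAs (adjusted p = 0.864) and -0.38 ± 0.13 between the lines (adjusted p = 0.0461). None of these passed at an adjusted p under 0.01.

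B2M, the light chain that every class I heavy chain needs to fold and to reach the surface, rose in NF-YAs. The gene lies at chr15:45003556-45011049 of GRCh37 on the plus strand, away from the heavy chain genes on chromosome 6. It was at 446, 484 and 427 CPM in Empty, 539, 468 and 614 CPM in NF-YAl, and 800, 801 and 994 CPM in NF-YAs. All NF-YAs values lay above all others, and the Empty and NF-YAl values overlapped. B2M was 1.91-fold higher in NF-YAs than in Empty (log2FC 0.94 ± 0.13, edgeR adjusted p = 0.000143), and its log2FC in NF-YAl was 0.26 ± 0.13 (adjusted p = 0.143). It was 1.60-fold lower in NF-YAl than in NF-YAs (log2FC -0.68 ± 0.13, adjusted p = 0.0027). That last call was lost without NF-YAl replicate B (adjusted p = 0.0124), without NF-YAs replicate C (0.0185) and with only these lines in the fit (0.0113). Its expected counts were whole numbers, within 0.005, in 9 of 9 libraries.

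TAP1, which forms the peptide transporter together with TAP2, fell in NF-YAl. TAP1 lies at chr6:32812986-32821593 of GRCh37 on the minus strand. It was at 87.8, 111 and 103 CPM in Empty, 53.1, 58.2 and 54.7 CPM in NF-YAl, and 63.9, 90.2 and 86.8 CPM in NF-YAs. The NF-YAl values were close together and below all others, and the NF-YAs values reached into the range of Empty. TAP1 was 1.82-fold below Empty in NF-YAl (log2FC -0.86 ± 0.13, edgeR adjusted p = 0.000453), against a log2FC of -0.32 ± 0.13 in NF-YAs (adjusted p = 0.077). Between the lines the log2FC was -0.54 ± 0.13 (adjusted p = 0.0136), which did not pass. Without NF-YAs replicate A it was -0.68 and passed (adjusted p = 0.00387), as it did with DESeq2 (0.00248). Like the heavy chains, TAP1 had fractional expected counts in 9 of 9 libraries.

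TAP2, the other chain of the transporter, lies at chr6:32789610-32806516 of GRCh37 on the minus strand. It was at 69.4, 71.0 and 61.2 CPM in Empty, 46.4, 60.6 and 60.0 CPM in NF-YAl, and 69.7, 77.8 and 78.0 CPM in NF-YAs. NF-YAl lay below both other groups, by little against the lowest Empty value, and Empty and NF-YAs overlapped. The log2FC of TAP2 was -0.27 ± 0.12 in NF-YAl (adjusted p = 0.0965), 0.16 ± 0.12 in NF-YAs (adjusted p = 0.306) and -0.43 ± 0.12 between the lines (adjusted p = 0.0197), so that none passed. The last passed with DESeq2 (adjusted p = 0.00651) and without NF-YAl replicate D (0.00966).

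The ratio of TAP1 to TAP2 in TPM, which does not depend on how a library is scaled, was 2.34 ± 0.287 (SD, n = 3) in Empty, while NF-YAl had a ratio of 1.58 ± 0.198 and NF-YAs one of 1.59 ± 0.171. The lowest Empty library had a ratio of 2.02 and the highest library of either line had 1.81. The ratio was 1.48-fold lower in NF-YAl and 1.47-fold lower in NF-YAs than in Empty, each with a two-sided exact permutation p of 0.1, the smallest that 3 libraries against 3 can give. Between the lines the exact permutation p was 1.0. This ratio was chosen after the levels of both genes had been seen.

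PSMB8 and PSMB9, subunits that replace the constitutive PSMB5 and PSMB6 in immunoproteasomes, both fell in NF-YAl. PSMB8 lies at chr6:32808494-32812456 of GRCh37 on the minus strand. It was at 31.3, 41.2 and 37.5 CPM in Empty, 15.4, 24.0 and 25.0 CPM in NF-YAl, and 24.0, 31.2 and 31.1 CPM in NF-YAs. All values of both lines lay below those of Empty, in NF-YAs only just, and the lines overlapped. PSMB8 was 1.70-fold lower in NF-YAl (log2FC -0.77 ± 0.18, edgeR adjusted p = 0.00622), and its log2FC was -0.35 ± 0.18 in NF-YAs (adjusted p = 0.15) and -0.42 ± 0.18 between the lines (adjusted p = 0.113). The call in NF-YAl was lost without Empty replicate B (adjusted p = 0.0332), Empty replicate C (0.0251) or NF-YAl replicate B (0.0116), and with only NF-YAl and Empty in the fit (0.015).

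PSMB9, annotated at chr6:32811913-32827628 of GRCh37 on the plus strand, overlaps PSMB8 and TAP1 on the other strand. It was at 7.68, 8.46 and 7.99 CPM in Empty, 2.55, 3.35 and 3.94 CPM in NF-YAl, and 4.04, 5.97 and 7.10 CPM in NF-YAs. The groups followed one another without overlap, with NF-YAl lowest and Empty highest. PSMB9 was 2.44-fold below Empty in NF-YAl (log2FC -1.28 ± 0.22, edgeR adjusted p = 0.000932), with a log2FC of -0.49 ± 0.21 in NF-YAs (adjusted p = 0.0951). The difference between the lines was -0.79 ± 0.23 (adjusted p = 0.0254), which did not pass by edgeR and did with DESeq2 (0.00724). PSMB9 rests on 48 to 96 reads per library in NF-YAl and 183 to 213 in Empty. PSMB8-AS1, a noncoding gene that overlaps this locus, fell with it in NF-YAl, from 3.67 ± 0.359 CPM (SD, n = 3) to 1.29 ± 0.302 CPM (log2FC -1.51 ± 0.28, edgeR adjusted p = 0.00157). Reads of the overlapping genes PSMB8, PSMB9, TAP1 and PSMB8-AS1 may be mixed where strand was not used.

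Of the constitutive beta subunits, none of PSMB1 to PSMB7 passed in any of the 3 comparisons, with medians of -0.13, 0.08 and -0.28 over these 7 genes. PSMB5 had a log2FC of -0.13, 0.07 and -0.21. PSMB6 had a log2FC of -0.32, 0.25 and -0.57 (edgeR adjusted p = 0.153, 0.254 and 0.025). Its NF-YAs values lay above all Empty and all NF-YAl values. Differences in the ratio of PSMB9 to PSMB6 therefore include those of PSMB6. The TPM ratio of PSMB8 to PSMB5 was 0.317 ± 0.0142 (SD, n = 3) in Empty, while NF-YAl had 0.197 ± 0.0390 and NF-YAs 0.238 ± 0.0440. For PSMB9 to PSMB6 the Empty libraries had a ratio of 0.0769 ± 0.00463, those of NF-YAl 0.0394 ± 0.00227 and those of NF-YAs 0.0453 ± 0.0108.
For both pairs every library of both lines lay below every Empty library. The ratio of PSMB8 to PSMB5 was 1.63-fold lower in NF-YAl and 1.34-fold lower in NF-YAs, and that of PSMB9 to PSMB6 1.95-fold and 1.73-fold lower, each with the smallest exact permutation p possible, 0.1. Between NF-YAl and NF-YAs the libraries overlapped, with exact permutation p of 0.4 and 0.5. PSMB10, the third inducible subunit, gave the same order against PSMB7, with Empty at a ratio of 0.264 ± 0.0144, NF-YAl at 0.146 ± 0.00495 and NF-YAs at 0.165 ± 0.0162, a pair added after the others were seen. Of 4 ratios in 3 comparisons, 8 of the 12 differences thus had no overlap, those with Empty, and 0.1 is the smallest p that this permutation test can give with 3 libraries against 3. These 8 share the same 3 Empty libraries, and the ratios with TAP2 and PSMB7 were chosen after values were seen. How often ratios of other genes separate in this way was not computed.

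**Figure D3:**
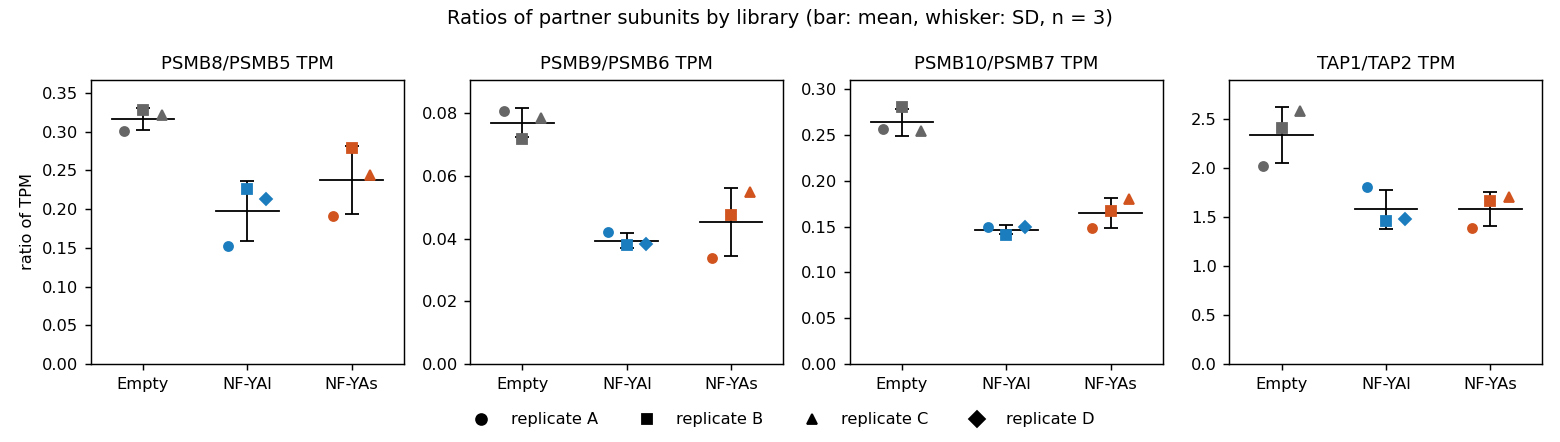
Ratios of deposited TPM (vertical axes, from 0) of each inducible proteasome subunit to the constitutive one it replaces, and of TAP1 to TAP2, by library, with a bar for the mean and whiskers for the SD of 3 libraries. In each panel all Empty libraries lie above all libraries of both NF-YA lines, and the lines overlap each other.

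Across the 9 libraries, each gene's log2 CPM centred on its own mean was compared with the average of all 9 genes. TAP2 stayed closest to that average, with a root mean square difference of 0.13, and HLA-C followed at 0.15. B2M was farthest at 0.41 and PSMB9 next at 0.33. The average itself was lowest in the NF-YAl libraries, at -0.40, -0.27 and -0.27, against 0.10, 0.25 and 0.07 in Empty. In NF-YAs it ran from -0.10 in replicate A to 0.26 and 0.37 in replicates B and C, so that replicate A of NF-YAs lay below the Empty libraries and the other NF-YAs libraries above them.
Outside the 9 genes, those nearest to this average were ERAL1, PROSER2, CCDC85B, ZNF574 and TFPT, with root mean square differences of 0.0820 to 0.0982 over 9 libraries, of 12601 genes compared. ERAL1, the nearest, had a log2FC of -0.40 in NF-YAl and 0.10 in NF-YAs.

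HLA-B, HLA-C, HLA-E, HLA-F, TAP1, TAP2, PSMB8 and PSMB9 lie in the MHC region, so the levels of neighbouring genes are given beside theirs. For the TAP and proteasome genes, the 100 nearest tested genes on the chromosome, within 2.08 Mb, had a median log2FC of 0.03 in NF-YAl, -0.23 in NF-YAs and 0.24 between the lines. In NF-YAl the log2FC of TAP1, TAP2, PSMB8 and PSMB9 were -0.86, -0.27, -0.77 and -1.28, all below that median. In NF-YAs they were -0.32, 0.16, -0.35 and -0.49, so that TAP2 lay above the median of its neighbours and the other 3 below it. Around HLA-B and HLA-C the medians were 0.03, -0.24 and 0.22. The log2FC of HLA-B had the other sign in each comparison, whereas that of HLA-C in NF-YAs, -0.07, had the same sign. Around HLA-E the medians were 0.04, -0.21 and 0.28, beside -0.40, -0.39 and -0.01 for HLA-E itself. Around HLA-F they were 0.12, -0.16 and 0.32, beside 0.00, 0.49 and -0.49 for HLA-F. Around B2M the medians were 0.18, 0.17 and 0.00.

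Transcript shares were examined for HLA-F, TAP1, TAP2 and PSMB8, which had at least a pair of transcripts above 5% of the gene's TPM on average. Of 27 comparisons of a share, 3 had no overlap between libraries, and the lowest exact permutation p was 0.1, or 0.9 after Benjamini-Hochberg adjustment. Among them were the 1574-nt and 1284-nt transcripts of HLA-F in NF-YAs against Empty, at -20.3 and 19.5 points. Shares of the same gene mirror each other, so these are not separate events. How often transcript shares of other genes separate in this way was not computed. The 1574-nt transcript of HLA-F took a share of 39.4% ± 4.74 (SD, n = 3) in Empty, while its share was 24.4% ± 15.3 in NF-YAl and 19.2% ± 8.69 for NF-YAs. The 5679-nt transcript of TAP2 took 29.2% ± 6.95 of the gene's TPM in Empty, while NF-YAl had 33.3% ± 2.33 and NF-YAs 10.3% ± 16.9. In NF-YAs, replicates A and C were at 0.92% and 0.08% and replicate B at 29.8%, with the rest going to a 5732-nt transcript of nearly the same length. The 1116-nt transcript of PSMB8 took 86.4 to 92.7% in all libraries, and the 2952-nt transcript of TAP1 49.6 to 63.8%.

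Of 7 genes that load or trim peptides for class I molecules, PDIA3 rose and ERAP1 fell in each line against Empty, that is, 2 of 7 passed in each, where 19.6% of all genes passed in NF-YAl and 22.6% in NF-YAs. PDIA3, an oxidoreductase of the loading complex and of the endoplasmic reticulum at large, was at 343 ± 12.5 CPM (SD, n = 3) in Empty, 595 ± 26.6 CPM in NF-YAl and 477 ± 11.9 CPM in NF-YAs. Its log2FC was 0.79 ± 0.09 in NF-YAl (edgeR adjusted p = 3.97e-05) and 0.47 ± 0.09 in NF-YAs (adjusted p = 0.00122).
ERAP1, which trims peptides in the endoplasmic reticulum, fell from 84.0 ± 5.76 CPM in Empty to 58.3 ± 0.274 CPM in NF-YAl (log2FC -0.53 ± 0.09, edgeR adjusted p = 0.000757) and 64.2 ± 3.45 CPM in NF-YAs (log2FC -0.39 ± 0.09, adjusted p = 0.0047). ERAP2, a related trimming enzyme, was lower in NF-YAl than in NF-YAs, at 24.3 ± 1.74 against 33.0 ± 2.31 CPM (log2FC -0.44 ± 0.10, edgeR adjusted p = 0.00829). TAPBP, which holds the heavy chain at the transporter, had a log2FC of -0.12 ± 0.10 in NF-YAl and -0.33 ± 0.10 in NF-YAs, and passed in neither (adjusted p = 0.418 and 0.027).

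Of 3 other inducible proteasome genes, 2 fell in NF-YAl, where 9.54% of all genes fell, and none passed in NF-YAs. PSMB10 fell from 22.2 ± 3.47 CPM (SD, n = 3) in Empty to 10.4 ± 1.48 CPM in NF-YAl (log2FC -1.09 ± 0.16, edgeR adjusted p = 0.000273). In NF-YAs it was at 14.7 ± 1.86 CPM and just missed the threshold (log2FC -0.59 ± 0.15, adjusted p = 0.0103). PSME2, part of the proteasome activator PA28, fell from 71.1 ± 7.62 to 50.5 ± 3.41 CPM in NF-YAl (log2FC -0.49 ± 0.11, adjusted p = 0.00485).

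**Figure D4:**
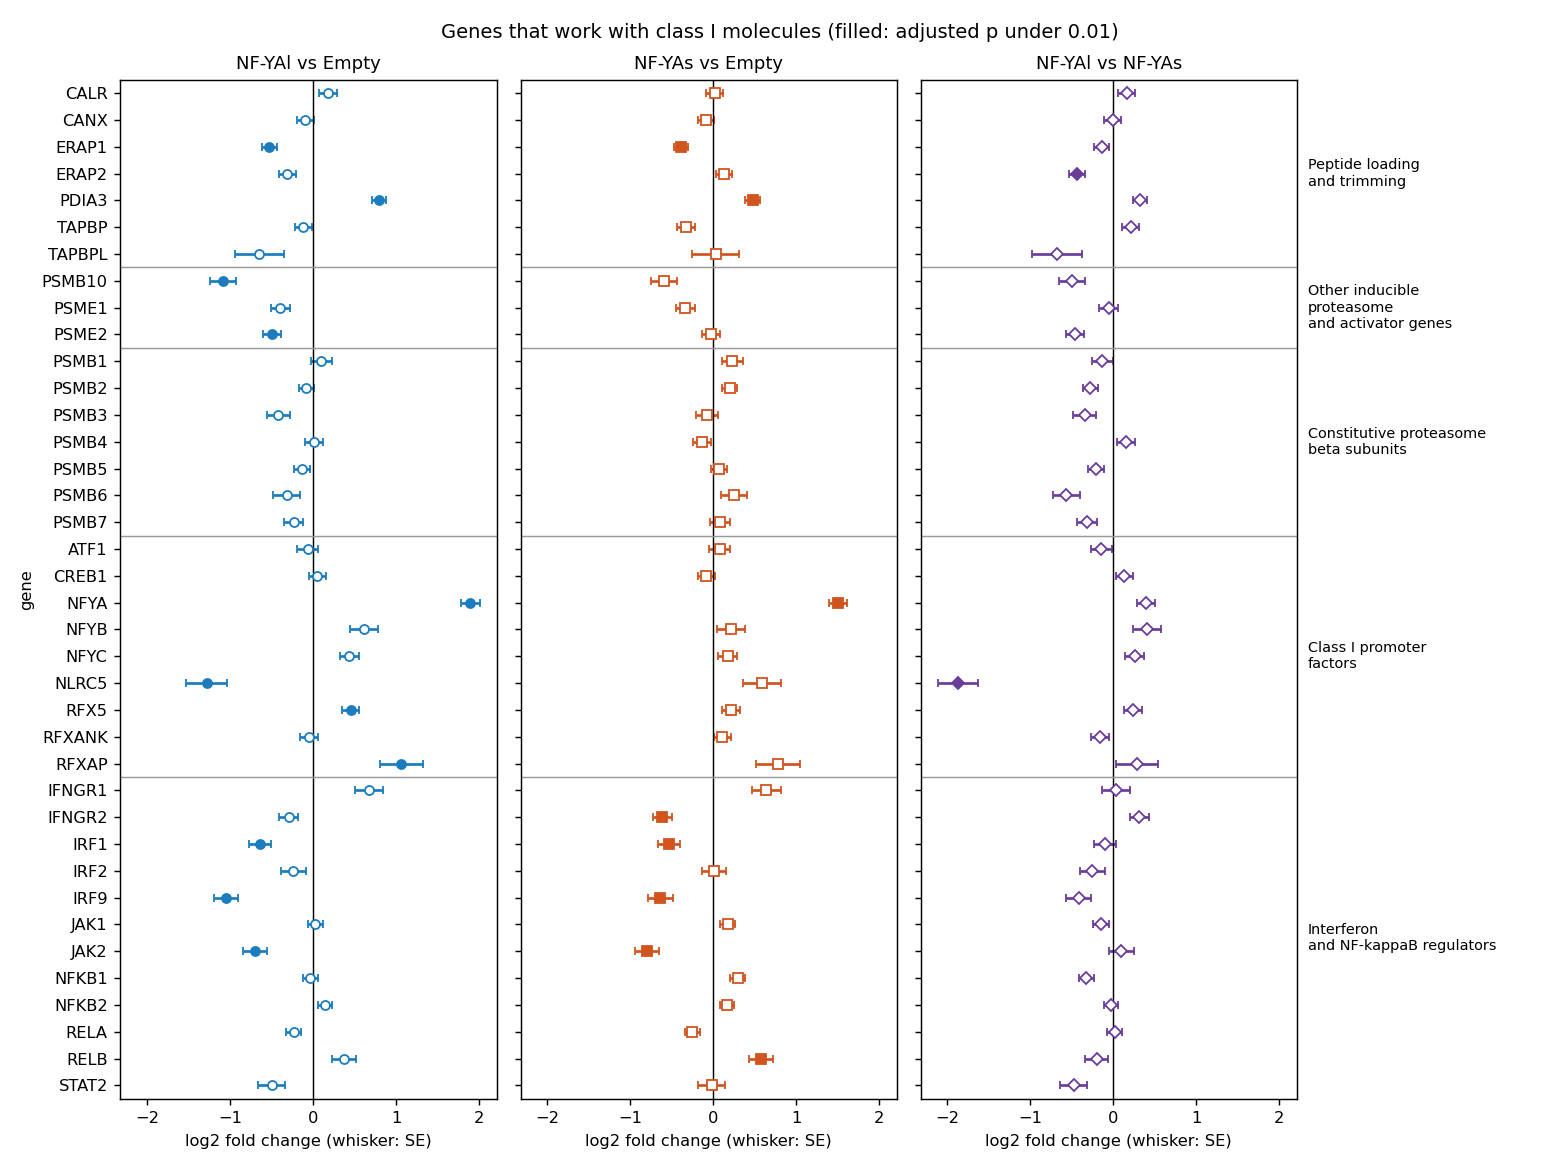
log2 fold changes (horizontal axes, whiskers SE) of genes that work with class I molecules, grouped by list, for the 3 comparisons. Filled symbols mark an adjusted p under 0.01; PSMB10, NLRC5 and IRF9 lie farthest to the left in NF-YAl against Empty, and NFYA farthest to the right.

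Of 9 factors known to act on class I promoters, 3 rose and 1 fell in NF-YAl, and 1 of 9, NFYA, rose in NF-YAs, against the 19.6% and 22.6% of all genes that passed. NFYA is the gene that the transgenes encode. NLRC5, the coactivator of class I genes, was at 22.7, 28.1 and 23.1 CPM in Empty, 13.0, 11.6 and 5.83 CPM in NF-YAl, and 28.9, 39.5 and 42.5 CPM in NF-YAs. The groups did not overlap, with NF-YAl lowest and NF-YAs highest. NLRC5 fell in NF-YAl (log2FC -1.28 ± 0.24, edgeR adjusted p = 0.00173), had a log2FC of 0.59 ± 0.23 in NF-YAs (adjusted p = 0.068), and differed between the lines (log2FC -1.87 ± 0.25, adjusted p = 0.000324).
NFYA rose in NF-YAl (log2FC 1.89 ± 0.11, edgeR adjusted p = 6.41e-07) and in NF-YAs (log2FC 1.51 ± 0.11, adjusted p = 2.21e-06). Its level was 1.31-fold higher in NF-YAl than in NF-YAs, a difference that did not pass (adjusted p = 0.0228). NFYB and NFYC, the partners of NF-YA, had a log2FC of 0.62 ± 0.17 and 0.43 ± 0.11 in NF-YAl (adjusted p = 0.0155 and 0.012) and passed in no comparison. RFX5, a subunit of the X box factor, rose in NF-YAl (log2FC 0.45 ± 0.11, edgeR adjusted p = 0.00661). RFXAP, another subunit, also rose there (log2FC 1.06 ± 0.26, adjusted p = 0.00852), at 0.914 to 3.37 CPM, and was named after its value was seen.

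Of 12 interferon and NF-kappaB pathway genes, 3 fell and none rose in NF-YAl, 4 fell and 1 rose in NF-YAs, and none passed between the lines. Of all genes 19.6%, 22.6% and 11.0% passed in these comparisons. IRF9, a subunit of a factor that interferons activate, was at 52.8, 64.5 and 68.2 CPM in Empty, 35.3, 28.6 and 25.6 CPM in NF-YAl, and 33.6, 40.5 and 45.2 CPM in NF-YAs. It fell in both lines, whose values lay below all Empty values and overlapped each other, with a log2FC of -1.05 and -0.64 (edgeR adjusted p = 0.000224 and 0.00497). IRF1, which binds the promoters of class I and of TAP1 and PSMB9, also fell in both, with a log2FC of -0.64 and -0.53 (adjusted p = 0.00333 and 0.00833). JAK2, a kinase of the interferon gamma receptor, fell likewise, with a log2FC of -0.71 and -0.80 (adjusted p = 0.00283 and 0.0011). IFNGR2, a chain of the interferon gamma receptor, fell in NF-YAs, from 78.8, 96.7 and 95.5 CPM in Empty to 59.7, 56.9 and 60.6 CPM (log2FC -0.61 ± 0.11, edgeR adjusted p = 0.00135), and was at 63.5, 75.7 and 81.3 CPM in NF-YAl (log2FC -0.30 ± 0.11, adjusted p = 0.0634). IFNGR1, the other chain of that receptor, went the other way and was named after its value was seen. Its log2FC was 0.67 ± 0.17 in NF-YAl and 0.64 ± 0.17 in NF-YAs, and it passed in neither (edgeR adjusted p = 0.0110 and 0.0132). RELB, an NF-kappaB subunit named after its value was seen, was the gene that passed as higher in NF-YAs (log2FC 0.57 ± 0.14, adjusted p = 0.00862). Whether any of these factors had a part in the changes of the class I genes was not tested.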

How the data were processed

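RNA-seq of 9 libraries of PC-3 MTSs was analysed, 3 per line, grouped by the sample labels. The authors aligned reads to human RefSeq transcripts (GRCh37) in RSEM 1.3.1, which ran bowtie2, and they deposited, per gene and transcript, the expected count, in which reads matching several transcripts are shared, and the TPM, scaled by RSEM within each library. The deposited FPKM were used only for their sums per library, and the deposited percent is the share of a gene's TPM taken by each transcript. Library preparation used a stranded total RNA kit per the labels.

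Tests used rounded expected counts and edgeR 4.0.16 under R 4.3.3 (filterByExpr, TMM, 1 quasi-likelihood fit of all libraries, Benjamini-Hochberg adjustment over 17108 genes). A gene passed at an adjusted p under 0.01, and a DEG also had a |log2FC| above 1. SEs are |log2FC| over the square root of F. Means are given with the SD of 3 libraries. Ratios and transcript shares were compared by two-sided exact permutation tests. Alternatives were DESeq2 1.42.0, limma 3.58.1 on log2(TPM + 1), RLE scaling, other filters, 2-group fits, an effective length offset (left out for genes with an effective length of 0 in any library), the replicate letter as a block, and leaving out each library. The procedure was tested on simulated data.

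Gene positions are from GENCODE for GRCh37 and promoters from RefSeq for GRCh38.p14. The genes and lists were chosen with earlier results of these data known. From each list of related genes, those passing in any comparison with a mean of at least 5 CPM were named, at most 4 by |log2FC|, besides NFYA, NFYB, NFYC, NLRC5, TAPBP, PSMB5, PSMB6, PSMB7 and PSMB10, and exceptions are marked. 1 gene of these lists is not reported here, and the rule was applied to the rest. Replicate counts differed beyond counting error in each group. HLA reads were aligned to reference transcripts, not to the alleles of PC-3. Plots used matplotlib 3.10.9.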

Additional observations from a re-analysis of the deposited data

How the results depend on the processing

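Counts of class I genes passing changed with the tool and the threshold. In NF-YAl against Empty (3 genes), 5 passed with DESeq2, 6 at an adjusted p under 0.05 and 0 with limma on deposited TPM. In NF-YAs against Empty (1 gene), 3 passed with DESeq2, 3 with only those groups in the fit, 3 at an adjusted p under 0.05 and 0 with limma. In NF-YAl against NF-YAs (2 genes), 5 passed with DESeq2, 5 at an adjusted p under 0.05, 1 with only those groups in the fit and 0 with limma. On deposited TPM, limma had 1, 3 and 1 of the 9 genes at an unadjusted p under 0.05, and the median log2FC of all genes moved to 0.22, 0.12 and 0.10. Of all genes, limma on deposited TPM passed 1049, 1043 and 478 in these comparisons, against 3346, 3865 and 1874 in the main edgeR fit. Totals for DESeq2, the fits of only those groups, rescaled TPM and left-out replicates are not given. Their counts of class I genes thus cannot be set against all genes. With TPM rescaled over genes with an mRNA transcript, an alternative chosen after seeing the data, limma passed 3, 1 and 2 genes. Leaving out a replicate gave 1 to 2 genes in NF-YAs against Empty (2 without NF-YAs replicate A) and 1 to 4 in NF-YAl against NF-YAs (4 without NF-YAs replicate A, 1 without NF-YAl replicate B or NF-YAs replicate C). RLE scaling, both other filters and the length offset left all 3 counts as they were.

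Same-letter deviations correlated at -0.07 to 0.25 (mean 0.09), and those of different letters at -0.22 to 0.16 (mean -0.03). These ranges overlap, so whether the replicate letters pair the samples was not settled, and the main fit left the letters out. With the replicate block, 4 genes passed in NF-YAs against Empty and 5 in NF-YAl against NF-YAs. Gained were HLA-E, TAP1 and PSMB8 in the first (adjusted p = 0.00239, 0.00913 and 0.00924) and TAP1, TAP2 and PSMB8 in the second (0.00597, 0.00579 and 0.00528). The genes passing overall rose from 3346, 3865 and 1874 to 4160, 5316 and 2813 in the order NF-YAl against Empty, NF-YAs against Empty, NF-YAl against NF-YAs.

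Signs turned only for log2FC that had not passed. TAP2 in NF-YAl was 0.010 with limma on TPM. HLA-C in NF-YAs was 0.10 with limma on TPM, 0.015 on rescaled TPM, and -0.20 to 0.053 leaving out a replicate. HLA-E between the lines was 0.042 with the replicate block, 0.12 and 0.073 with limma on deposited and rescaled TPM, and -0.12 to 0.052 leaving out a replicate. HLA-F in NF-YAl was -0.036 to 0.056 leaving out a replicate. The cause was not tested. The values of PSMB9 rest on 48 to 213 reads per library, and the exact permutation test of the ratios cannot give a p under 0.1 with 3 libraries per line.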

Other observations

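Among genes related to class I molecules, 10 of 12 class I-like ligands and receptors were expressed enough to test. MICA, a stress ligand that natural killer cells recognise, fell from 39.4 ± 4.47 CPM (SD, n = 3) in Empty to 28.4 ± 1.59 CPM in NF-YAl (log2FC -0.47 ± 0.11, edgeR adjusted p = 0.00706) and 21.7 ± 1.91 CPM in NF-YAs (log2FC -0.86 ± 0.11, adjusted p = 0.000124). ULBP2, a ligand of the same receptor, rose in NF-YAs from 5.83 ± 0.931 to 10.2 ± 1.35 CPM (log2FC 0.80 ± 0.20, adjusted p = 0.00697). FCGRT, a class I-like heavy chain that binds B2M and carries antibodies, rose in NF-YAl from 82.8 ± 12.4 to 132 ± 17.5 CPM (log2FC 0.67 ± 0.13, adjusted p = 0.00172).

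Class II genes were near the limit of detection. The 13 genes summed to 2.70 to 3.03 CPM in Empty, 2.33 to 3.08 CPM in NF-YAl and 4.31 to 5.81 CPM in NF-YAs, and 4 had enough counts to test. HLA-DMB, named after its value was seen, was at 0.0419 to 0.159 CPM in Empty and 0.599 to 1.18 CPM in NF-YAs (edgeR adjusted p = 0.00214), a fold that rests on very few reads.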
